A study of Mus musculus with 6 samples.

Results

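Semaphorins and plexins, a family of guidance ligands and receptors, were described in endothelial cells of the lung after deletion of Smad4. The list holds 31 genes of the 24951 in the deposited counts: 18 semaphorin genes, 9 plexin genes, Plxdc1 and Plxdc2, which encode membrane proteins with a plexin-type domain, and Farp1 and Farp2, which encode exchange factors that act with plexins. Members were taken by gene symbol, and all 31 were found and passed the filter on low counts. The mutant group (3 libraries) came from pups at postnatal day 5 with floxed Smad4 alleles and Cdh5-CreERT2, a Cre recombinase driven by the promoter of an endothelial cadherin gene and activated by tamoxifen. The control group (3 libraries) came from floxed pups of the same age without Cre, so deletion of Smad4 cannot be told apart from the presence of Cre. The time of tamoxifen is not given in the labels. Cells were pulled from digested lung with beads carrying antibody to CD31, and polyadenylated RNA was sequenced. The labels speak of independent biological samples, give the controls as wild type, and give all 6 libraries the same tag before the sample number, whose meaning they do not explain.

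Semaphorins are secreted or membrane-bound proteins that steer growing axons and vessels. They bind plexins, whose inner part switches off small GTPases of the Ras family and so changes adhesion and the cytoskeleton. Secreted class 3 semaphorins mostly need neuropilins as co-receptors, while Sema3e binds plexin D1 directly. In endothelium, plexin D1 is the best known plexin and its loss in mice disturbs the patterning of vessels.

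Plxnd1 was the only member that edgeR called higher in the mutants (adjusted p under 0.05). Its promoter and that of its ligand gene Sema3e are shown because they are the receptor and direct ligand of this system, and 23 of the 31 members matched the RefSeq promoter table (GRCm38.p6). The 250 bases before the start are given 5′ to 3′ on the gene's strand, at chr6:115995006-115995255 (minus strand) for Plxnd1 and chr5:14025026-14025275 (plus strand) for Sema3e. Capitals mark GGCGTGG, a run of letters chosen after the sequence was read.
Plxnd1: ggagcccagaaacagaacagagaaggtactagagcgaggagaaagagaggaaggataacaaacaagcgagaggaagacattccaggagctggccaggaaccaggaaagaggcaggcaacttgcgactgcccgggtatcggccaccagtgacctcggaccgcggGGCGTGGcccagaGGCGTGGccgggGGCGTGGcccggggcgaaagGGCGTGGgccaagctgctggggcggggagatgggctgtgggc
Sema3e: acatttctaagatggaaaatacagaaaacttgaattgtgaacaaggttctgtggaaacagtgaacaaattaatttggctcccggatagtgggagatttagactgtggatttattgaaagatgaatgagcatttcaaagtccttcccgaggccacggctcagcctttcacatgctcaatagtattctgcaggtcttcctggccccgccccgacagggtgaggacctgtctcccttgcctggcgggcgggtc
The Plxnd1 window held GGCGTGG 4 times and the Sema3e window 0 times, counted on both strands (reverse complement CCACGCC). Of 32851 promoter windows of this length, 7.54% held it at least once. Of SMAD motifs, only CAGAC (reverse complement GTCTG) and GGCGCC (its own reverse complement) were searched for. Both occurred 0 times in either window, and were found in 42.2% and 9.59% of all windows. Shorter or variant SMAD sites were not counted. The motifs did not overlap one another in these windows, and a match or its absence describes letters only.

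Reads assigned to genes came to 16041786 to 20172318 in mutant libraries and 14093564 to 21113926 in control libraries. Levels are given in CPM, the usual count unit relative to library size, here scaled by TMM. The targeted gene Smad4 averaged 85.3 ± 11.1 CPM in mutant and 182 ± 5.74 CPM in control libraries (SD, n = 3 each). The endothelial markers Pecam1, Cdh5, Kdr, Tie1, Tek, Emcn, Erg and Cldn5 were all present, and together they held 8081 to 8305 CPM in mutant and 7671 to 8570 CPM in control libraries. RNA of other lung cells was present too. The sums of 8 epithelial markers were 2479 to 2837 CPM in mutant and 1903 to 3380.0 CPM in control libraries, and those of 8 fibroblast markers 1259.7 to 1908 CPM in mutant and 1076 to 1672 CPM in control libraries. The lymphatic marker Ccl21a and the erythroid markers Hbb-bs and Hba-a1 were at 0 in all 6 libraries.

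Per kilobase of exon, Plxnd1 was the most abundant member, at 188 ± 11.3 CPM per kb in mutant and 138 ± 8.78 CPM per kb in control libraries (SD, n = 3 each). In control libraries it stood above 98.8% of tested genes and its range did not overlap that of the next member. Sema7a, Sema3f and Sema4c followed it in control libraries, at 68.4, 68.3 and 62.2 CPM per kb, with overlapping ranges, so their order is not resolved. In mutant libraries the same genes stood at 83.7, 54.7 and 64.0 CPM per kb. By mean level, Plxna1 ranked 7 in mutant libraries, at 29.6 CPM per kb, and 5 in control libraries, at 49.99 CPM per kb. Its control range overlapped that of Sema4c, so the order of these genes is not resolved either. In control libraries Plxnb2, Sema6d and Sema6a came after Plxna1. The lowest members were Plxnb3, Sema5b and Sema4g, at 0.293, 0.192 and 0.266 CPM per kb in mutant and 0.372, 0.288 and 0.284 CPM per kb in control libraries. These 3 rested on 17 to 49 counts per mutant library and 28 to 58 per control library. Levels per length use all annotated exons of a gene and do not take account of which isoforms the cells use.

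**Figure D1:**
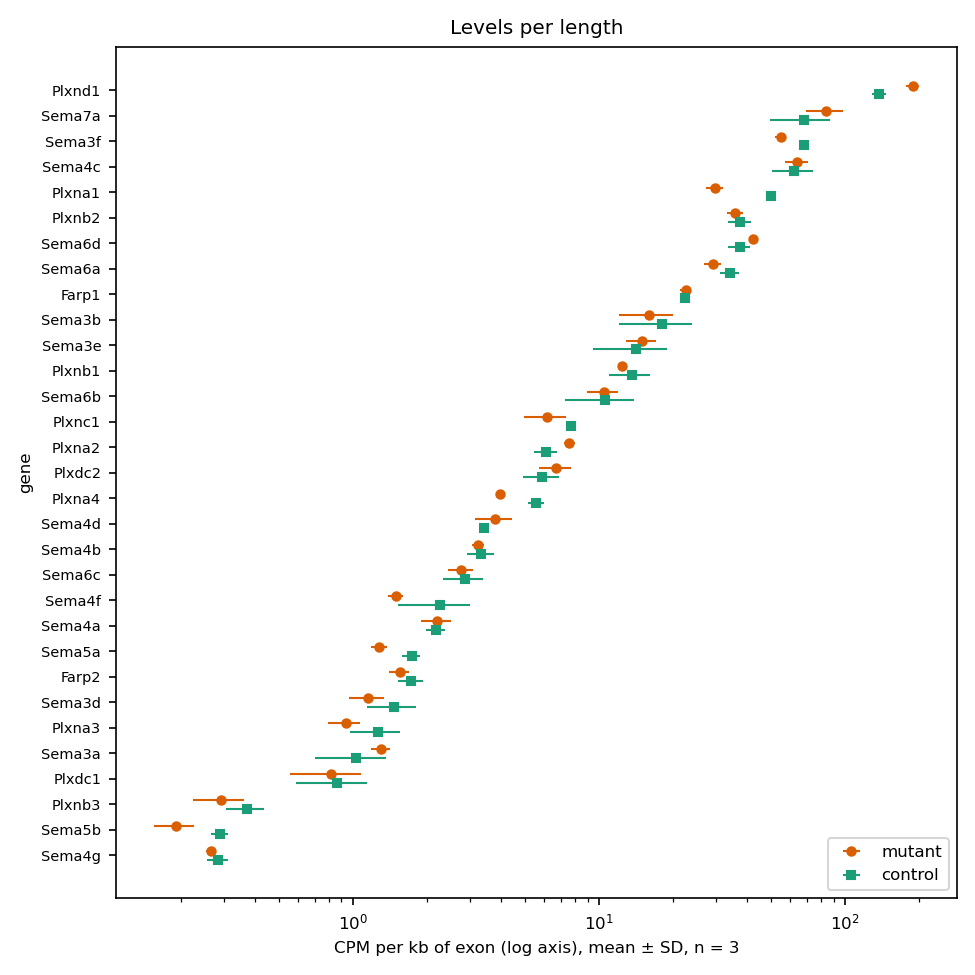
Mean level of each of the 31 genes in CPM per kb of exon on a log axis, in mutant (circles) and control (squares) libraries, with SD over 3 libraries. Plxnd1 stands highest in both groups, and by mean level Plxna1 ranks 7 in mutant and 5 in control libraries.

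Of the 9 plexins edgeR called 3, and of the 18 semaphorins on the list 0. The list leaves out the semaphorins Sema3c and Sema3g, which are given with the pathway genes below. Of these, Sema3c was called lower (log2 fold change -1.66, edgeR adjusted p = 5.35e-05). Calls were made at an adjusted p under 0.05 (quasi-likelihood F test of edgeR, p adjusted by Benjamini-Hochberg over all tested genes). Over all genes, 488 of 14934 were called (3.27%), and of the 31 members 3 were called (9.68%). The share called higher was 1.93% of all genes and the share called lower 1.34%, against 1 and 2 members. Plxnd1 rose, and Plxna1 and Plxna4 fell. All 3 lie on chromosome 6, as does Sema4f, which edgeR did not call. The share of all genes called on that chromosome was not counted. At an unadjusted p under 0.05 stood 9 members (29%), beside 14% of all genes, with 2 higher (7.55% of all genes) and 7 lower (6.48% of all genes). Of the semaphorins 4 were among them, and limma-voom called 0 and DESeq2 2 of the 18. DESeq2 called 5 of the 31 members, beside 5.06% of all genes. The median log2 fold change was -0.04 for the semaphorins and -0.33 for the 9 plexins, beside 0 for all tested genes. Groups did not overlap in 9 of the 31 members (29%), beside 20.6% of all tested genes. In these bulk libraries, fewer cells of a type and less RNA per cell cannot be told apart.

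**Figure D2:**
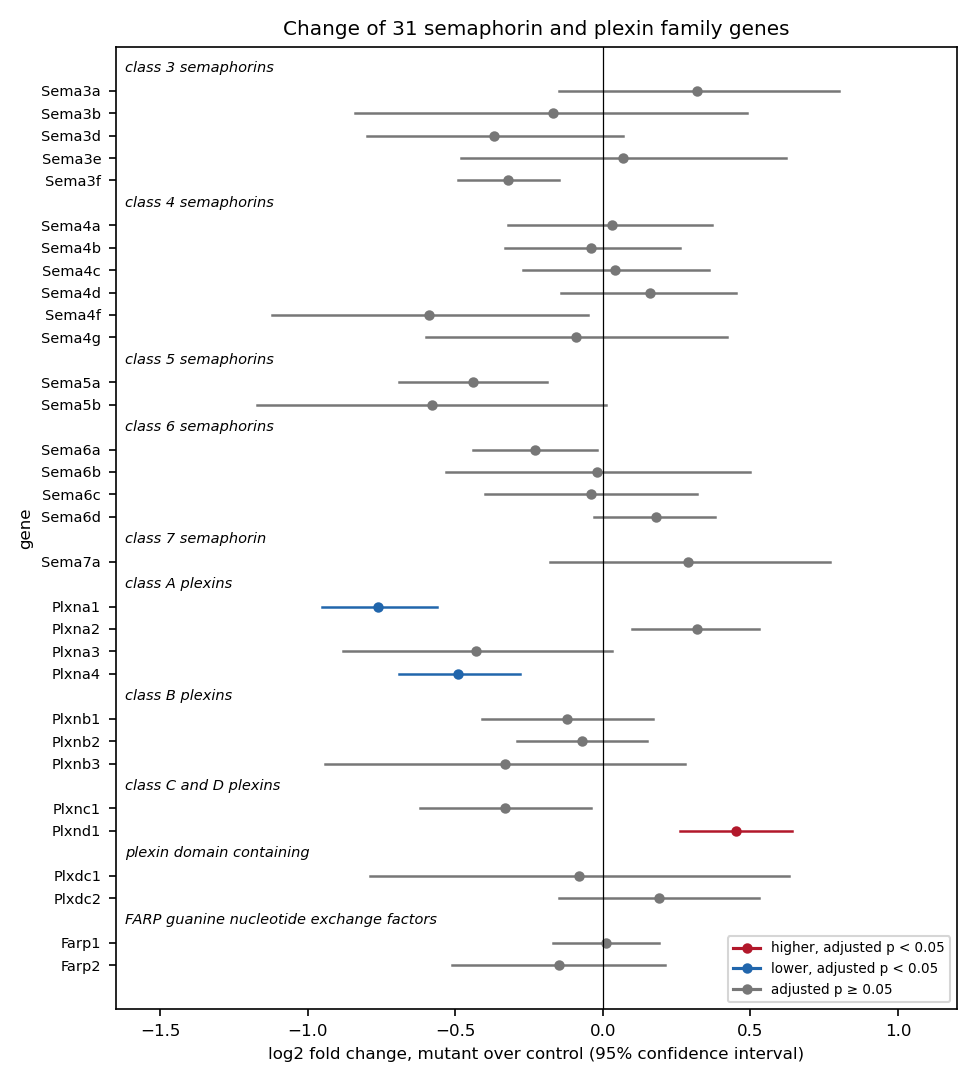
Log2 fold change of mutant over control for each of the 31 genes, ordered by class, with bars for the 95% confidence interval from edgeR. The coloured points are those with an adjusted p under 0.05: Plxnd1 higher at 0.45, Plxna1 lower at -0.76 and Plxna4 lower at -0.49.

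Plxnd1 (ENSMUSG00000030123.15, chromosome 6 of GRCm38, 115954811 to 115995005, minus strand) encodes plexin D1, a receptor of endothelial cells for Sema3e and, together with neuropilins, for other class 3 semaphorins. It had 1358, 1462 and 1299 CPM in mutant replicates 1, 2 and 3, against 934, 1038 and 1051 CPM in control replicates 1, 2 and 3. Every mutant library was above every control library. The means were 1373 ± 82.4 CPM in mutant and 1008 ± 64.1 CPM in control libraries (SD, n = 3 each), 1.36-fold higher. On the log2 scale this was a fold change of 0.45 (SE 0.09, 95% interval 0.26 to 0.64, edgeR adjusted p = 0.0184). The call ended without mutant replicate 1 (adjusted p = 0.0642), mutant replicate 2 (0.105), control replicate 1 (0.0583) or control replicate 2 (0.0577), with a log2 fold change of 0.39 to 0.49 over the 6 fits that left out a library.

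Plxna1 (ENSMUSG00000030084.11, chromosome 6, 89316314 to 89362620, minus strand) encodes plexin A1, a signalling partner of neuropilin 1 for Sema3a and a receptor for Sema6d. Its level was 278, 243 and 283 CPM in mutant replicates 1, 2 and 3, against 471, 451 and 436 CPM in control replicates 1, 2 and 3. The groups were far apart, with the highest mutant library well below the lowest control library. Means were 268 ± 21.8 CPM in mutant and 453 ± 17.7 CPM in control libraries (SD, n = 3 each), 1.69-fold lower. On the log2 scale this was a fold change of -0.76 (SE 0.09, 95% interval -0.95 to -0.56, edgeR adjusted p = 0.00157). This was the member with the largest change, and its call held under each of the 12 alternatives run. An antisense gene, Gm26811, overlaps 10.7% of the exon bases of Plxna1, and whether the counting used strand is not given.

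Plxna4 (ENSMUSG00000029765.12, chromosome 6, 32144268 to 32588192, minus strand) encodes plexin A4, which serves Sema3a through neuropilin 1 and binds Sema6a and Sema6b. Its values were 55.8, 54.3 and 57.3 CPM in mutant replicates 1, 2 and 3, against 81.8, 81.7 and 71.7 CPM in control replicates 1, 2 and 3. The mutant libraries lay within a narrow band below all control libraries. Means were 55.8 ± 1.505 CPM in mutant and 78.4 ± 5.79 CPM in control libraries (SD, n = 3 each), 1.40-fold lower. On the log2 scale this was a fold change of -0.49 (SE 0.09, 95% interval -0.69 to -0.28, edgeR adjusted p = 0.0170). Without mutant replicates 1, 2 and 3 the adjusted p was 0.0633, 0.0913 and 0.0513, and without control replicate 2 it was 0.0620, so the call ended in each of these fits.

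The other class A plexins were not called. Plxna2, a receptor for Sema6a, had 129, 138 and 124 CPM in mutant replicates 1, 2 and 3, against 92.4, 114 and 108 CPM in control replicates 1, 2 and 3. Its groups did not overlap and its values were higher in the mutants, opposite to Plxna1 and Plxna4, with a log2 fold change of 0.32 (SE 0.10, edgeR adjusted p = 0.140). Plxna3, on the X chromosome, was low at 6.09 to 8.10 CPM in mutant and 7.72 to 12.2 CPM in control libraries, with overlap (log2 fold change -0.43, 95% interval -0.88 to 0.03). The 4 class A plexins together held 469, 443 and 473 CPM in mutant replicates 1, 2 and 3, against 655, 658 and 624 CPM in control replicates 1, 2 and 3. Most of this sum is Plxna1.

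Within a library, the level of one gene over that of another, each per kb of exon, does not depend on library scaling. Plxnd1 over Plxna1 was 6.06, 7.47 and 5.70 in mutant replicates 1, 2 and 3, against 2.46, 2.85 and 2.99 in control replicates 1, 2 and 3. This sets the member called higher over the member with the largest fall, so the choice of genes fixed that the groups separate. Plxnd1 over its ligand gene Sema3e was 11.1, 13.1 and 13.9 in mutant replicates 1, 2 and 3, against 6.57, 11 and 14.1 in control replicates 1, 2 and 3, and here the groups overlapped.

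**Figure D3:**
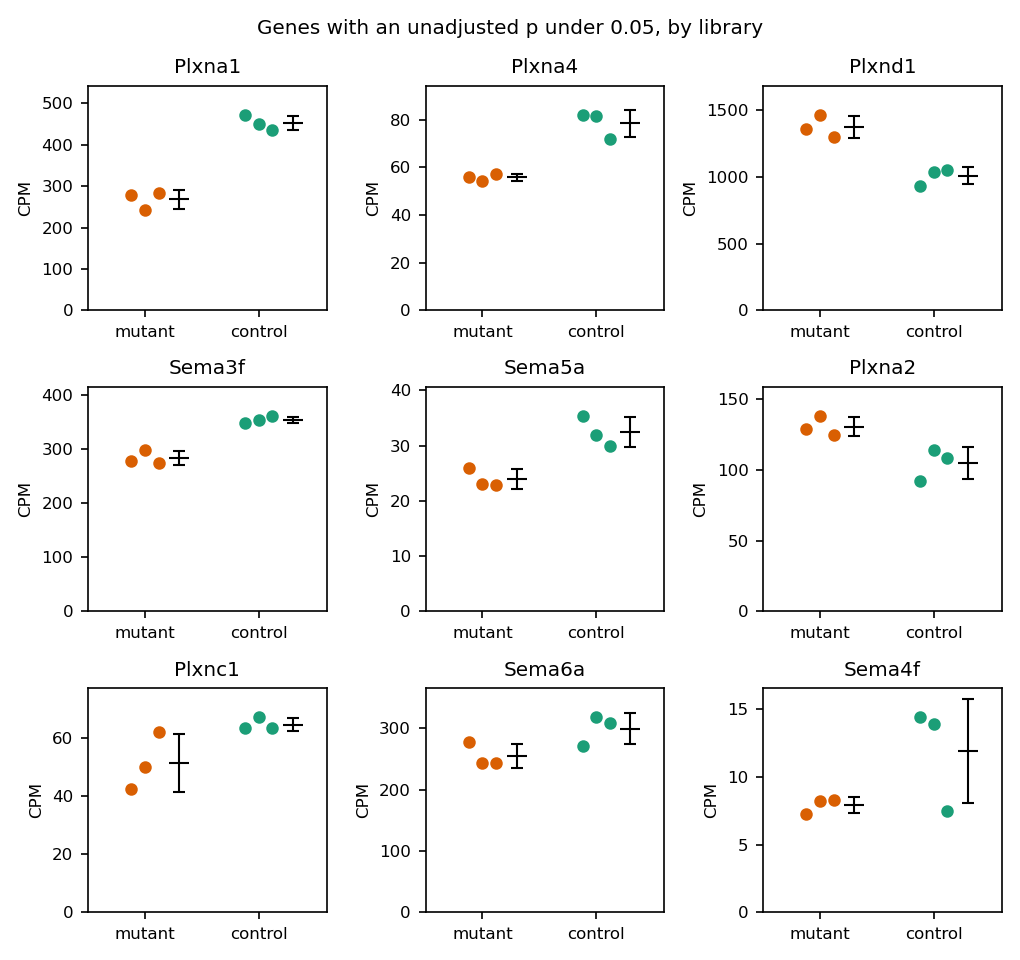
CPM of the 9 genes with an unadjusted p under 0.05, with points for the 3 mutant and 3 control libraries and bars for mean ± SD, on axes that start at 0. The groups are separate in all but Sema4f and Sema6a. A single control library overlaps the mutants in each of these, at 7.47 CPM in Sema4f and 270.2 CPM in Sema6a.

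Plxnc1 encodes the receptor of Sema7a. It had 42.4, 49.8 and 61.9 CPM in mutant replicates 1, 2 and 3, against 63.4, 67.1 and 63.3 CPM in control replicates 1, 2 and 3. The mutant libraries were spread and the highest of them came close to the controls (log2 fold change -0.33, SE 0.13, edgeR adjusted p = 0.284). Its ligand gene Sema7a, which encodes a membrane-anchored semaphorin, had 327, 236 and 266 CPM in mutant and 178, 204 and 295 CPM in control replicates 1, 2 and 3. These groups overlapped (log2 fold change 0.29, 95% interval -0.18 to 0.77).

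Class B plexins, the receptors of class 4 semaphorins, were not called in any of 3 genes by edgeR, limma-voom or DESeq2, and 0 had an unadjusted p under 0.05. Plxnb2 stood at 254 to 291 CPM in mutant and 258 to 318 CPM in control libraries, with a 95% interval of -0.29 to 0.15 on the log2 scale. Plxnb1, the receptor of Sema4d, stood at 114 to 124 CPM in mutant and 103 to 148 CPM in control libraries. Plxnb3, a receptor of Sema5a on the X chromosome, had 1.51 to 2.39 CPM in mutant and 1.96 to 2.80 CPM in control libraries, with an interval of -0.94 to 0.28 on the log2 scale.

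Among the class 3 semaphorins on the member list, Sema3f, a ligand that prefers neuropilin 2, came nearest to a call. The class 3 gene Sema3c, outside the members, was called lower and is given with the pathway genes below. Sema3f had 278, 299.6 and 275 CPM in mutant replicates 1, 2 and 3, against 349, 354 and 361 CPM in control replicates 1, 2 and 3. The groups were separate and tight (log2 fold change -0.32, SE 0.08, edgeR adjusted p = 0.0584), and DESeq2 (adjusted p = 0.0118) and upper-quartile scaling (0.0424) called it lower. Over the other alternatives its adjusted p was 0.0553 to 0.200.

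Sema3e, the ligand of plexin D1, had 156, 142 and 118 CPM in mutant replicates 1, 2 and 3, against 181, 120.3 and 94.9 CPM in control replicates 1, 2 and 3. The control libraries spanned more than the mutant ones and the groups overlapped (log2 fold change 0.07, 95% interval -0.48 to 0.62). Sema3b, a class 3 ligand, had 76.3, 95.7 and 57.6 CPM in mutant and 113, 88.1 and 56.9 CPM in control replicates 1, 2 and 3. In control libraries Sema3b and Sema3e were highest in replicate 1 and lowest in replicate 3, the order of the epithelial marker sum (3380.0, 2893 and 1903 CPM). In mutant libraries that sum was 2557, 2837 and 2479 CPM, and Sema3b followed its order while Sema3e did not. The pericyte and smooth muscle and the mesothelial sums had the same order in control libraries. These genes were chosen after their values were seen, and the part of RNA from these cells in them was not tested. Sema3a, which repels axons and sprouting vessels through neuropilin 1, had 16.4 to 19.5 CPM in mutant and 10.3 to 19.3 CPM in control libraries. Sema3d, which in mice is needed for pulmonary veins to connect correctly to the heart, had 8.29 to 11.5 CPM in mutant and 9.61 to 15.2 CPM in control libraries (log2 fold change -0.37, 95% interval -0.80 to 0.07). Sema3a, Sema3d and Sema3e lie near one another on chromosome 5, between 12383385 and 14256689.

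Class 4 semaphorins are membrane proteins. Sema4c, a ligand of plexin B2, was the most abundant of them per length, with 308, 315 and 259 CPM in mutant and 229.9, 337 and 289.7 CPM in control replicates 1, 2 and 3. The groups overlapped fully, with an interval of -0.27 to 0.36 on the log2 scale. Sema4f had 7.25, 8.22 and 8.29 CPM in mutant replicates 1, 2 and 3, against 14.4, 13.9 and 7.47 CPM in control replicates 1, 2 and 3. Control replicate 3 was inside the mutant range (log2 fold change -0.59, SE 0.24, edgeR adjusted p = 0.300), and without it Sema4f was called lower, at -0.84 (adjusted p = 0.0299). Sema4d, the ligand of plexin B1, had 25.1 to 34.6 CPM in mutant and 25.4 to 26.9 CPM in control libraries. Sema4a, Sema4b and Sema4g had log2 fold changes of 0.03, -0.04 and -0.09, with overlap in each.

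Class 5 semaphorins carry thrombospondin repeats, and both genes were lower without overlap of the groups, yet neither was called by edgeR. Sema5a had 26.0, 23.1 and 22.8 CPM in mutant replicates 1, 2 and 3, against 35.3, 32.0 and 30.0 CPM in control replicates 1, 2 and 3 (log2 fold change -0.44, SE 0.11, edgeR adjusted p = 0.0715, DESeq2 adjusted p = 0.0321). Sema5b had 1.54, 1.07 and 1.46 CPM in mutant replicates 1, 2 and 3, against 1.91, 1.99 and 2.22 CPM in control replicates 1, 2 and 3. These are the values of 17 to 30 counts per mutant and 28 to 46 per control library, and the interval reached from -1.17 to 0.01 on the log2 scale.

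Class 6 semaphorins are transmembrane ligands of class A plexins. Sema6d, a ligand of plexin A1, had 458, 434 and 446 CPM in mutant replicates 1, 2 and 3, against 350.4, 428 and 405 CPM in control replicates 1, 2 and 3. All mutant libraries were above the controls, by a small margin (log2 fold change 0.18, 95% interval -0.03 to 0.38, edgeR adjusted p = 0.444). Sema6a, a ligand of plexins A2 and A4, had 277, 243 and 244 CPM in mutant and 270.2, 318 and 309 CPM in control replicates 1, 2 and 3, with overlap (log2 fold change -0.23, edgeR adjusted p = 0.296). Sema6b and Sema6c had log2 fold changes of -0.02 and -0.04, with overlap.

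Plxdc1 and Plxdc2, known as tumor endothelial marker 7 and its relative, are receptors for the antiangiogenic factor PEDF. Plxdc2 had 50.4, 50.9 and 38.6 CPM in mutant and 45.3, 44.6 and 33.0 CPM in control replicates 1, 2 and 3, and Plxdc1 had 2.63 to 5.16 CPM in mutant and 2.65 to 5.13 CPM in control libraries. Both genes were lowest in replicate 3 of each group, where the fibroblast marker sum was also lowest, at 1259.7 CPM in mutant and 1076 CPM in control replicate 3. The pericyte and smooth muscle, epithelial and mesothelial sums were lowest in replicate 3 of each group as well. The part of RNA from these cells in the values of Plxdc1 and Plxdc2 was not tested. Farp1, a Rac regulator that works with plexin A receptors, had 118 to 131 CPM in mutant and 121 to 127 CPM in control libraries, with an interval of -0.17 to 0.19 on the log2 scale. Farp2, the exchange factor bound to plexin A1, had 7.56 to 9.003 CPM in mutant and 8.44 to 10.3 CPM in control libraries, and 19.4% of its exon bases overlap Stk25 on the other strand.

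Other genes of the pathway were given by a list of 57, chosen with earlier results of these data known. Of these, 54 were tested and 5 were called (9.26%, beside 3.27% of all genes). There were 3 called higher (5.56%, beside 1.93%) and 2 called lower (3.70%, beside 1.34%). Because of that choice, these shares do not test the list. The calls were 1 of 2 semaphorins, 2 of 17 GTPases and their regulators and 2 of 18 effectors. Of 14 co-receptors and partners edgeR called 0, with 2 (Nrp1 and Nrp2) at an unadjusted p under 0.05, the level reached by 14% of all genes, and of 3 ligands and partners of the plexin-domain proteins 0, with 1 at that level. Sema3c, a class 3 semaphorin, was 3.16-fold lower, at 147, 137 and 172 CPM in mutant replicates 1, 2 and 3, against 493, 463 and 485 CPM in control replicates 1, 2 and 3. Sema3g, an arterial class 3 semaphorin, had 324 to 343 CPM in mutant and 372 to 429 CPM in control libraries (edgeR adjusted p = 0.125). The co-receptor gene Nrp1 had 695, 609 and 732 CPM in mutant replicates 1, 2 and 3, against 895, 776 and 949 CPM in control replicates 1, 2 and 3, without overlap (log2 fold change -0.36, edgeR adjusted p = 0.106). DESeq2 called Nrp1 lower (adjusted p = 0.0402). Nrp2, the co-receptor preferred by Sema3f, had 191 to 231 CPM in mutant and 162 to 203 CPM in control libraries (log2 fold change 0.26, edgeR adjusted p = 0.319).

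The other called genes act inside the cell. Crmp1 and Dpysl3 encode collapsin response mediator proteins, a family first known from Sema3a signalling in neurons. Crmp1 had 21.2, 24.8 and 22.0 CPM in mutant replicates 1, 2 and 3, against 8.31, 6.12 and 11.04 CPM in control replicates 1, 2 and 3, 2.65-fold higher (edgeR adjusted p = 0.00378). Dpysl3 had 400.0, 414 and 341 CPM in mutant replicates 1, 2 and 3, against 251, 230.2 and 274 CPM in control replicates 1, 2 and 3 (log2 fold change 0.61, edgeR adjusted p = 0.00885). The groups did not overlap in either gene, and the call of Dpysl3 ended without mutant replicate 2 (adjusted p = 0.0604) or control replicate 2 (0.0508).

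Tiam1, a Rac exchange factor, had 31.7, 28.2 and 32.4 CPM in mutant replicates 1, 2 and 3, against 58.7, 54.2 and 52.9 CPM in control replicates 1, 2 and 3 (log2 fold change -0.84, edgeR adjusted p = 0.00185). Rras2, a relative of the R-Ras GTPase that plexins inactivate, had 67.3, 68.8 and 68.1 CPM in mutant replicates 1, 2 and 3, against 48.8, 39.0 and 49.8 CPM in control replicates 1, 2 and 3 (log2 fold change 0.57, edgeR adjusted p = 0.0190). Both genes had separate groups. The call of Rras2 ended without any 1 of the mutant replicates (adjusted p = 0.0626, 0.102 and 0.0634 without replicates 1, 2 and 3).

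Some markers of endothelial subtypes differed between the groups, and within most lists not in one direction. The sum of 7 arterial markers was 1094, 936 and 1043 CPM in mutant replicates 1, 2 and 3, against 1284, 1374 and 1336 CPM in control replicates 1, 2 and 3, and 3 of the 7 (Gja4, Efnb2 and Sox17) were called lower. The median log2 fold change of the arterial list was -0.34. The sum of 7 lymphatic markers was 1529 to 1594 CPM in mutant and 1169 to 1415 CPM in control libraries. Lyve1, called higher, carried that difference: without it the sum was 574 to 627 CPM in mutant and 513 to 673 CPM in control libraries, the list's median log2 fold change was -0.03, and the lymphatic regulator Prox1 stood at -0.13.

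The sum of 6 aerocyte markers was 1893 to 1998 CPM in mutant and 1472 to 1808 CPM in control libraries. Its direction turned without Apln, the 1 aerocyte marker called higher, to 1243 to 1269 CPM in mutant and 1284 to 1591 CPM in control libraries. Of the 6 aerocyte markers 4 had a negative log2 fold change, the median was -0.18, and Tbx2 and Fibin were called lower. Among 6 general capillary markers Gpihbp1 was called higher (log2 fold change 0.54, edgeR adjusted p = 0.00885) and Lpl lower (-0.55, adjusted p = 0.0376), while their sum overlapped between the groups. Of the 8 endothelial markers Tek was called lower (-0.50, adjusted p = 0.0128). These called markers are named, and the sums without Lyve1 and Apln were taken, after the values were seen. The sum of 7 lymphoid markers was 148 to 202 CPM in mutant and 129.7 to 143 CPM in control libraries, with a median log2 fold change of -0.17, and its most abundant gene, Ms4a1, had an edgeR adjusted p of 0.107. The part of these markers' cells in the changes of Plxnd1, Plxna1 and Plxna4 was not tested. The venous, fibroblast, pericyte and smooth muscle, epithelial and myeloid sums overlapped between the groups.

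The intervals bound the change of the members, both the 3 called and the 28 not called. The 95% interval lay within 2-fold in either direction for 29 of all 31 members. The exceptions were Sema4f and Sema5b, neither of them called, whose lower bounds were -1.12 and -1.17 on the log2 scale. Each interval is for a single gene and is not adjusted for the number of genes.

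**Figure D4:**
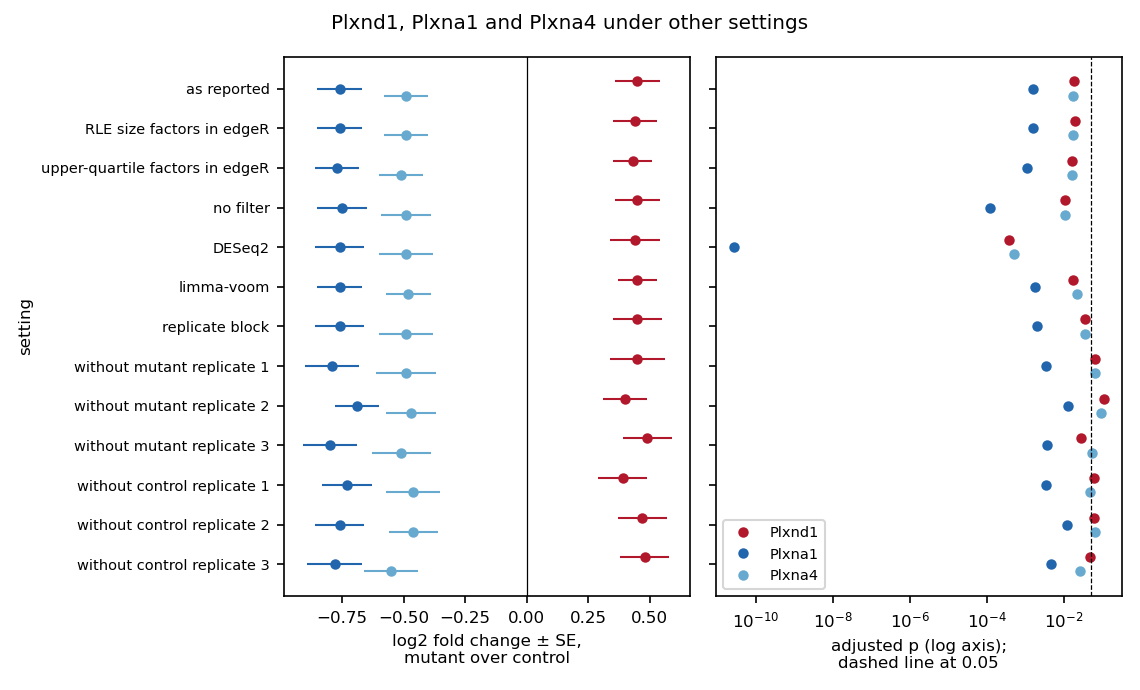
Log2 fold change ± SE (left) and adjusted p on a log axis (right) of Plxnd1, Plxna1 and Plxna4 as reported and under 12 alternatives. Directions are the same throughout, Plxna1 stays left of the dashed line at 0.05, and Plxnd1 and Plxna4 cross it when single libraries are left out.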

How the data were processed

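Raw counts per gene symbol were deposited by the authors for 6 libraries, each singly and in a table of the series, and 0 values differed between the forms. Per the submitters' processing notes the build was mm10 and DESeq2 was used in a role not stated. For the aligner, counter, annotation and use of strand, the sources used here give nothing. One sentence of the labels' protocols names the mice HHTf/f and HHTiECKO, which is not explained. Reads with no feature (53.9% to 58.2% of a library) and ambiguous reads (0.288% to 0.366%) entered neither library sizes nor tests.

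The tests used edgeR 4.0.16 under R 4.3.3: filterByExpr (14934 genes kept), TMM scaling, robust quasi-likelihood F test, two-sided, all 6 libraries, no covariate, Benjamini-Hochberg over all tested genes, call at adjusted p under 0.05. Fitting functions were tested on simulated data. The SE is the log2 fold change over the square root of F. CPM uses TMM-scaled library sizes. Lengths and coordinates are those of GENCODE M21 on GRCm38, by symbol. Replicates of a group differed beyond sampling noise (chi-square per degree of freedom at least 12.3). P-values set the difference between the groups against the spread between libraries of a group, which edgeR estimates with information from all tested genes.

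Alternatives were other scaling factors, no filter, DESeq2 1.42.0, limma-voom (limma 3.58.1), a replicate block and leaving out each library. The members and the lists were chosen with earlier results of these data known. Any member could be named, as could Smad4, the semaphorins and neuropilins outside the members, called or most abundant genes of the pathway list, and the most abundant markers.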

Additional observations from a re-analysis of the deposited data

How the results depend on the processing

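Plxna1 was called under all 12 alternatives, and 0 of 40 single-gene results changed sign while called. In these results 13 calls were lost, all in fits without 1 library, and 5 were gained (Sema3f with upper-quartile factors and DESeq2, Sema5a and Nrp1 with DESeq2, Sema4f without control replicate 3). DESeq2 called 755 genes over all, 443 higher and 312 lower, and 5 members, 4 of them lower, where 5.06% of all genes were called. Leaving out each library in turn gave 211 to 428 calls over all genes, with 131 to 257 higher and 80 to 204 lower, and 1 to 4 members, with 0 to 1 higher and 1 to 3 lower. The lowest count over all genes came without mutant replicate 2, and no member was called higher without mutant replicate 1, mutant replicate 2, control replicate 1 or control replicate 2. With the replicate block the counts were 466 genes and 3 members, and it changed no call of a member. Samples of the same number correlated in their deviations by -0.01, 0.02 and 0.15, and those of different number by -0.15 to 0.11. The highest value was that of the samples numbered 3, while the other same-number values lay within the range of different numbers. The numbers were not taken to pair the samples. Depth limits Plxnb3, Sema5b and Sema4g.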
